A study of Homo sapiens with 10 samples.

Results

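The untreated state of ESI017, a human embryonic stem cell line, was described from the 2 libraries of wild-type (WT) cells kept in mTeSR1 alone, of 10 bulk RNA-sequencing libraries in all. mTeSR1 is a defined medium that keeps human pluripotent stem cells undifferentiated. Members were taken by their treatment label, with no measured value used. All groups shared the line, the WT genotype, the medium and plating at 200k cells per well of 12-well plates 24 h before treatment. The other 8 libraries came from cells given recombinant WNT3A at 300 ng/ml or the GSK3 inhibitor CHIR99021 at 8 µM, each for 6 h or 18 h, with 2 libraries per group. A number from the series' design text marks the biological repeat: mTeSR1, WNT3A 6 h, WNT3A 18 h and CHIR99021 6 h hold 1 library of repeat 1 and 1 of repeat 2, and both CHIR99021 18 h libraries belong to repeat 2. One cell line was used, so the libraries do not sample differences between lines.

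Pluripotent stem cells hold themselves undifferentiated through a small set of transcription factors that act together, chiefly POU5F1, SOX2 and NANOG. In human cells of the primed kind, FGF and TGF-β family signalling sustain this state. Canonical WNT ligands bind frizzled and LRP receptors, stop the β-catenin destruction complex and let β-catenin act with TCF/LEF factors, which in such cells turns on primitive streak genes such as TBXT.

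Levels are given in CPM, the estimated counts of a gene scaled to a library total of 1e+06 after identifiers with 1 symbol were summed. In each pair of values below, repeat 1 stands first and repeat 2 second. Levels of different genes are mostly set against each other per kilobase (kb) of the longest annotated transcript, as the mean of both libraries. Some ranks, leading members and thresholds are given in CPM, which does not account for length. A symbol was called present at 1 CPM or more in both libraries, split at 1 CPM or more in only 1, low below that, and at the floor with 3 counts or fewer in both. The libraries held 1.89e+07 and 1.81e+07 counts, and all 10 held between 1.66e+07 and 2.67e+07. At these depths 3 counts correspond to 0.159 and 0.165 CPM. Of 35940 symbols, 13294 (37%) were present, 711 were split, 2563 were low and 19372 were at the floor. Among protein-coding symbols 12917 of 19774 (65.3%) were present, and these shares are the background for every list count below.

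The 5 markers of pluripotent stem cells were present in both libraries. LIN28A, an RNA-binding protein that blocks maturation of let-7 microRNAs, read 2656 and 2619 CPM. DNMT3B, a de novo DNA methyltransferase, read 2463 and 2497 CPM. These repeats lay within a few percent of each other, whereas the 3 transcription factors differed more. POU5F1 (GRCh38 chr6:31164337-31180731, 4 identifiers summed) read 1678 and 924 CPM, a 1.82-fold difference with a 95% counting interval of 1.78 to 1.85. SOX2 (chr3:181711924-181714436) read 346 and 257 CPM. NANOG (chr12:7787794-7799141) went the other way, at 104 and 184 CPM, 1.77-fold with a counting interval of 1.67 to 1.87. Such intervals cover counting error only, since 1 library stands against 1. Per kb, LIN28A stood at 658, DNMT3B and POU5F1 at 572 each, SOX2 at 120 and NANOG at 27.8 CPM.

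Other pluripotency genes were present as well. All 24 of 24 core members were present, with summed levels of 14139 and 14035 CPM. After LIN28A, DNMT3B and POU5F1, the highest per kb were PODXL, the surface sialomucin that carries TRA-1 epitopes, at 283 CPM per kb, the RNA-binding L1TD1 at 272, the chromatin-associated DPPA4 at 218 and the NODAL co-receptor TDGF1 at 202. All 20 of 20 primed-state members were present too, led per kb by the surface protein CD24 at 958, the secreted WNT inhibitor SFRP2 at 200, the WNT receptor FZD7 at 139, SALL2 at 130 and THY1 at 99.7 CPM per kb. CD24 read 2407 and 2408 CPM in the libraries. Of 20 naive-state members only 6 were present, and the highest per kb of these, TFAP2C, stood at 1.6 CPM per kb. TFCP2L1 read 5.78 and 11.7 CPM and KLF4 1.64 and 1.49 CPM. FGF4 (0.848 and 3.53 CPM), NLRP7 (0.690 and 1.43 CPM) and DPPA3 (1.06 and 0.661 CPM) were split, and KLF17, HORMAD1 and KHDC1L had 0 counts in both libraries.

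**Figure D1:**
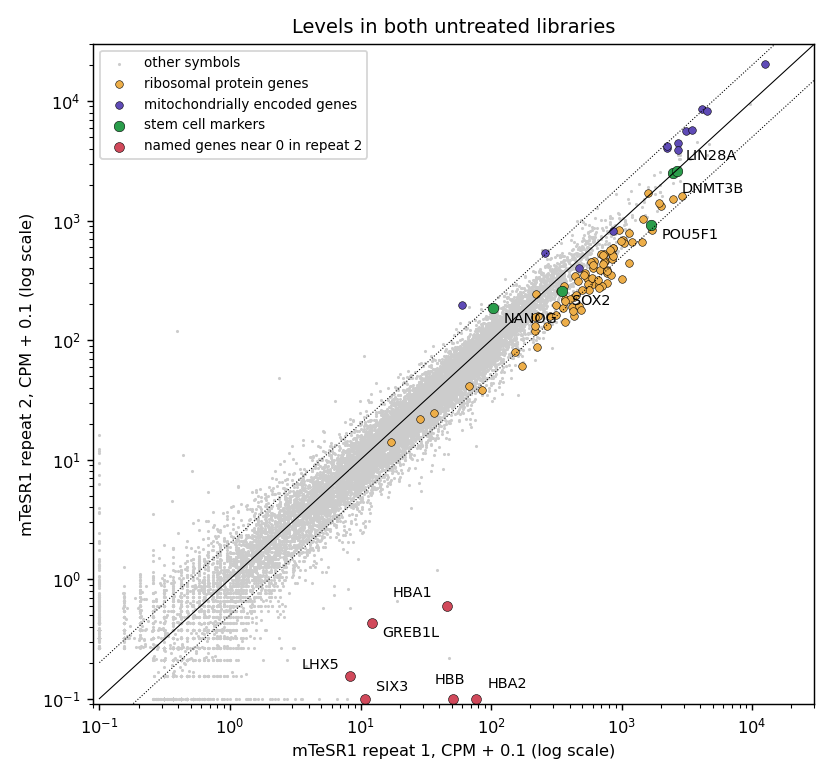
Level of every symbol above the floor in the mTeSR1 libraries, in CPM plus 0.1 on log axes, repeat 1 on the x axis and repeat 2 on the y axis, with named genes marked. Most symbols lie near the diagonal, and HBB, HBA2, SIX3 and LHX5 lie far below it, at 0 or near 0 in repeat 2.

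By raw counts, the most abundant symbols were genes for mitochondrial respiration, translation, cytoskeleton and glycolysis. MT-CO1, a subunit of cytochrome c oxidase encoded in mitochondrial DNA, led with 12632 and 20578 CPM. The translation elongation factor EEF1A1 followed with 9633 and 9417 CPM. Other leading nuclear genes were ACTB (4672 and 4374 CPM), the elongation factor EEF2 (3793 and 4558), the glycolytic enzyme GAPDH (4491 and 3543), the chromatin protein HMGA1 (3556 and 3706), the chaperone HSP90AB1 (3351 and 3250), the fatty acid synthase FASN (2777 and 3543) and the actin crosslinker FLNA (2726 and 3565). LIN28A ranked 20 and DNMT3B 21 by mean CPM. Of the top 20, 9 were mitochondrially encoded, 0 were ribosomal protein genes and 11 were others. Per kb the top 20 held 12 mitochondrially encoded genes, 1 ribosomal protein gene and 7 others. The 100 most abundant symbols took 18.8% and 21.0% of counts.

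All 18 of 18 glycolysis members were present, with summed levels of 14880 and 12759 CPM. GAPDH stood highest at 2142 CPM per kb, followed by ENO1 at 967, LDHB at 647, PGAM1 at 522 and ALDOA at 402 CPM per kb. The share of mitochondrially encoded counts was 3.94% in repeat 1 and 6.73% in repeat 2, and the share of ribosomal protein counts was 5.71% and 3.42%. Across the 8 treated libraries these shares lay between 2.70% and 5.37% and between 2.72% and 6.19%. Repeat 2 of mTeSR1 thus had the highest mitochondrial share of the 10 libraries.

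Transcription factor lists covering 14 families held 293 symbols, of which 123 (42.0%) were present and 70 had 0 counts in both libraries. Of the 123 present factors 42 reached 10 CPM per kb, a smaller share than the 5428 of 12917 present protein-coding symbols (42.0%). The present factors had a median of 5.37 CPM per kb, beside 7.46 over present protein-coding symbols. POU5F1 led at 572 CPM per kb. SOX2 at 120 and ZIC2, a zinc-finger factor of primed pluripotency, at 97.2 followed. Next came the nuclear receptor NR2F6 at 81.9, the cell cycle factor FOXM1 at 69.4, SOX4 at 65.4, the nuclear receptor NR6A1 at 55.3, the BMP-responsive inhibitor ID3 at 55.0 and MYCN at 53.6 CPM per kb. FOXH1, the partner of SMAD proteins in NODAL signalling, stood at 40.7 CPM per kb.

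The HOX family was undetected. All 39 HOX genes, which give cells their position along the body axis, had 0 counts in both libraries, which allows up to 0.159 and 0.165 CPM each. None of 6 GATA members was present, 2 of 17 T-box members were (MGA and TBX6) and 1 of 9 PAX members was. By contrast, all 8 of 8 SMAD members, 6 of 6 TEAD and YAP members and 11 of 11 MYC and MAX members were present. Between these extremes lay the SOX (12 of 20), POU (6 of 14), FOX (19 of 44), KLF and SP (18 of 26), ZIC and GLI (7 of 11), HES, HEY and ID (10 of 14) and nuclear receptor (24 of 48) families. Of 27 members of the LHX, IRX, OTX and related homeobox families 6 were present and another 6 were split. Among protein-coding symbols 3% were split.

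Lineage factors were rare. Of 22 primitive streak and mesoderm members, 4 were present. NKX1-2, a homeobox factor of caudal progenitors, read 44.5 and 39.4 CPM, TCF15 7.05 and 4.41, SP8 4.08 and 3.03 and TBX6 1.70 and 1.6 CPM. TBXT, GSC, MESP1, MSGN1, HAND1, HAND2 and FOXF1 had 0 counts in both libraries, and MIXL1 was split at 0.477 and 1.27 CPM. Of 11 endoderm members only FOXA3 was present (28.5 and 31.1 CPM), while SOX17, PDX1 and NKX2-1 had 0 counts. Of 15 trophoblast and amnion members 3 were present, KRT7 at 13.4 and 9.48 CPM, IGFBP3 at 9.75 and 4.35 CPM and GABRP at 1.8 and 4.13 CPM.

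Several neural factors were split between repeats. Of 23 members 3 were present, among them POU3F1, a POU factor of the epiblast and early neurectoderm, at 64.2 and 40.4 CPM. Another 5 were split, all toward repeat 1, beside 594 of 19774 protein-coding symbols (3%) split in either direction. Over all symbols, 13722 reached 1 CPM in repeat 1 and 13577 in repeat 2. SIX3, a factor of the anterior forebrain and eye field, read 10.7 and 0 CPM. LHX2 read 3.02 and 0.165, SIX6 2.49 and 0, PAX6 1.27 and 0 and RAX 1.11 and 0.0551 CPM. Bulk counts cannot tell fewer cells of a type from less RNA per cell.

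**Figure D2:**
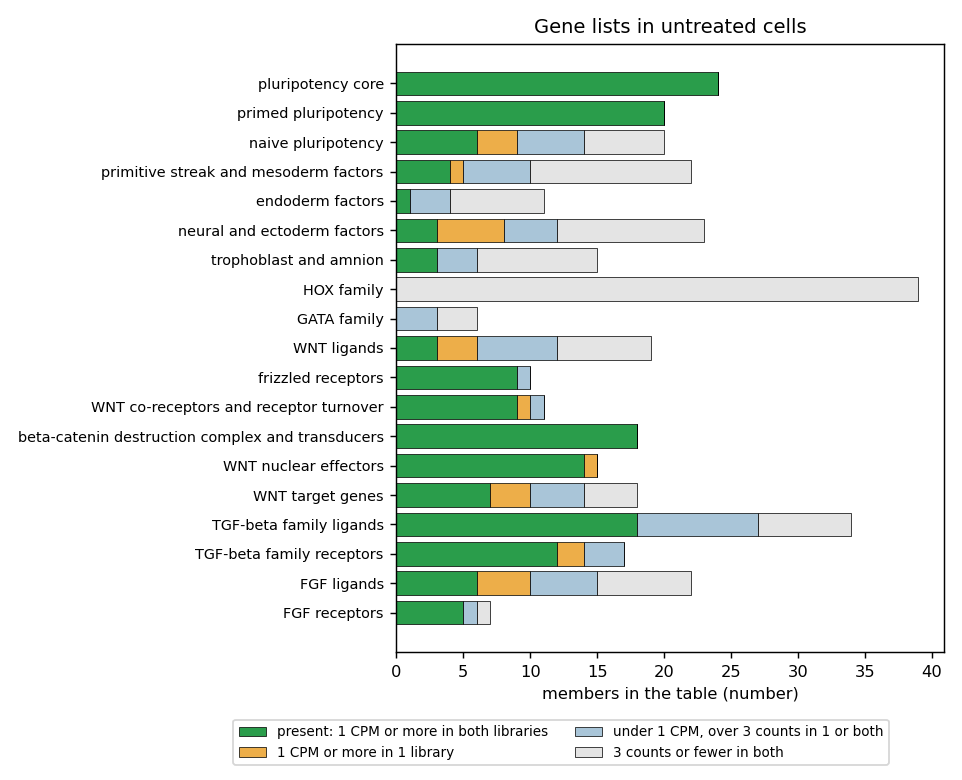
Number of members of each gene list that were present, split, low or at the floor in the mTeSR1 libraries, as stacked horizontal bars. Pluripotency core and primed lists are wholly present, and the HOX list is wholly at the floor.

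Markers of other cell types were mixed, with none of 9 blood markers but 7 of 9 neuron and glia markers present. Of 9 fibroblast markers 4 were present, with COL1A2 at 68.4 and 97.0 CPM, and of 8 endothelial markers 4 were, with the VEGF receptor KDR at 126 and 234 CPM. Of 9 blood markers none was present and HBG1 and HBE1 had 0 counts, but HBA1 was split at 45.6 and 0.496 CPM. Of 9 neuron and glia markers 7 were present, led by the tubulin TUBB3 at 334 and 245 CPM. Of 8 germ cell markers 3 were present, the highest being at 5.37 CPM.

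Sequence before the transcription start was set beside presence, because genes with CG-rich promoters tend to be widely expressed. For 14811 protein-coding symbols with a RefSeq promoter entry (GRCh38.p14), CG was counted in the 250 bases before the start; CG reads the same on both strands. The share of symbols present was 21.7% with 0 to 4 CG (n = 2919), 62.1% with 5 to 14 (n = 3215), 85.5% with 15 to 24 (n = 4371) and 89.5% with 25 or more (n = 4306). Against this trend stood 454 symbols with 25 or more CG that were not present, among them all 6 such HOX genes of 20 with an entry and 8 of 9 such WNT ligands of 16. Median CG counts were 20.5 for the HOX genes, 27.5 for the WNT ligands, 24 for 5 frizzled receptors, 10 for 15 core pluripotency members and 18 overall. The 4 promoters below, chosen after their values were seen, show both kinds of exception, with CG in capitals and the rest in lower case, read 5′ to 3′ on the gene's strand. FZD5 (chr2:207769907-207770156, minus strand, 127 and 232 CPM) and HOXD1 (chr2:176188418-176188667, plus strand, 0 and 0 CPM) held 30 and 31 CG but opposite levels. DPPA4 (chr3:109337547-109337796, minus strand, 710 and 618 CPM) held 3 CG and was abundant. TBXT (chr6:166168656-166168905, minus strand, 0 and 0 CPM) held 23 CG.
FZD5: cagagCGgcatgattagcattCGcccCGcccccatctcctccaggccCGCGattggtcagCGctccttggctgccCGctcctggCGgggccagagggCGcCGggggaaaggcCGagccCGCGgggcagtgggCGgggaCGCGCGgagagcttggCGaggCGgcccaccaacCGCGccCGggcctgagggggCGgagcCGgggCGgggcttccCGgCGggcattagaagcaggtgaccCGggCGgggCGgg
HOXD1: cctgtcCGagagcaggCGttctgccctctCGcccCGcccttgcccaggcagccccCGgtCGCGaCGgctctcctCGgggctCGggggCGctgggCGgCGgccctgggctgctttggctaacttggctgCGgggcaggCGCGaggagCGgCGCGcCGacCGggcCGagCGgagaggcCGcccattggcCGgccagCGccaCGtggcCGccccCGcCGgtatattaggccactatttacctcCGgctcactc
DPPA4: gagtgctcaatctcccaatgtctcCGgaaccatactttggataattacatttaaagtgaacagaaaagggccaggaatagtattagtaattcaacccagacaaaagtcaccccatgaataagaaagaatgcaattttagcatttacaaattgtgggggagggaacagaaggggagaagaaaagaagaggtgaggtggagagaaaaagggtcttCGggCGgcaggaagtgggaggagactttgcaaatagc
TBXT: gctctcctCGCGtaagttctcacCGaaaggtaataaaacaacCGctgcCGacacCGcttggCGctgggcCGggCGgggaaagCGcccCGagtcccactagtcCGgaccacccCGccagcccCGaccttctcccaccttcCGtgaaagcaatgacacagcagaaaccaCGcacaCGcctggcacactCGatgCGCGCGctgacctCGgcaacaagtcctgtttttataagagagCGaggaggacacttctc
These matches describe letters in this window only, and methylation was not measured.

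WNT ligands were nearly absent while their receptors and transducers were present. Of 19 ligands 3 were present: WNT2B at 3.12 and 2.71 CPM, WNT5A at 3.23 and 2.04 CPM and WNT9A at 2.49 and 1.82 CPM. WNT4 (2.01 and 0.717 CPM), WNT5B (1.75 and 0.882 CPM) and WNT3 (0.795 and 1.16 CPM) were split. WNT1, WNT2, WNT6 and WNT8A had 0 counts and WNT3A had 3 counts or fewer in both libraries. The list's median was 0.0695 CPM per kb and its highest member 0.571 CPM per kb, against a median of 7.46 CPM per kb over present protein-coding symbols. PORCN, the enzyme that acylates WNT proteins, read 17 and 14.3 CPM, and WLS, which carries them to the surface, was split at 1.91 and 0.772 CPM. RSPO4, which enhances WNT reception, was the only present R-spondin of 4, at 15 and 9.92 CPM.

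Of 10 frizzled receptors 9 were present, with a list median of 3.49 CPM per kb. FZD7 stood far above the others at 139 CPM per kb (488 and 588 CPM), followed by FZD5 at 26.7 (127 and 232 CPM) and FZD2 at 20.7 (59.1 and 28.2 CPM). FZD10, at 0.318 and 0.276 CPM, was low. Of 11 co-receptors and turnover proteins 9 were present. Per kb, the pseudokinase PTK7 stood at 35.0, the WNT5A receptor ROR1 at 31.6, the R-spondin receptor LGR4 at 21.8, LRP5 at 14.5 and LRP6 at 12.1 CPM. The receptor-removing ligase ZNRF3 read 34 and 39.3 CPM, whereas its relative RNF43 was split at 0.675 and 2.09 CPM, and the stem cell receptor LGR5 was low at 0.0530 and 0.276 CPM.

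Some secreted WNT inhibitors were abundant. Of 15 members 8 were present, and SFRP2 at 200 and SFRP1 at 186 CPM per kb exceeded every frizzled receptor per kb. SFRP1 read 994 and 674 CPM and SFRP2 463 and 348 CPM. SHISA2, which holds back frizzled and FGF receptors inside the cell, read 37.4 and 39.2 CPM, DKK3 25.7 and 27.4 CPM and FRZB 16.2 and 7 CPM. DKK4 and SFRP4 had 0 counts.

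All 18 of 18 destruction complex and transducer members were present. CTNNB1, which encodes β-catenin, stood at 108 CPM per kb (491 and 565 CPM). The kinases CSNK1E, CSNK1A1, GSK3A and GSK3B stood at 64.6, 39.8, 28.5 and 11.9 CPM per kb, and the scaffolds AXIN1, AXIN2 and APC at 13.2, 8.30 and 6.00 CPM per kb. Of 15 nuclear effectors 14 were present. The repressive factor TCF7L1 dominated the TCF/LEF factors at 98.8 CPM per kb (284 and 303 CPM), with TCF7L2 at 16.6, TCF7 at 2.51 and LEF1, split at 1.06 and 0.110 CPM, at 0.168 CPM per kb. Of 18 WNT target genes 7 were present: the cyclin CCND1 (160 and 204 CPM), MYC (87.2 and 80.3), AXIN2 (39.9 and 30.9), ZNRF3, NKD1 (11.9 and 15.9), TCF7 (12.9 and 13.9) and APCDD1 (6.09 and 3.14). SP5, a target that reads out β-catenin activity closely, read 0.371 and 0 CPM.

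In the TGF-β family, 18 of 34 ligands and 12 of 17 receptors were present, with list medians of 0.353 and 2.84 CPM per kb. NODAL, which signals through SMAD2 and SMAD3, read 2.49 and 7.72 CPM. Its antagonists LEFTY1 and LEFTY2 read 8.70 and 21.1 CPM and 5.03 and 11.6 CPM, and GDF3 read 8.64 and 12.7 CPM. All 4 were higher in repeat 2, whereas of the 18 present ligands 7 were higher and 11 lower in repeat 2. GDF11 (53.2 and 48.0 CPM), AMH (34.5 and 13.2), GDF1 (25.9 and 8.37), BMP7 (13.7 and 20) and BMP2 (7.53 and 3.86) were also present, and reads of GDF1 cannot be told from those of CERS1, with which it shares a transcript. Among receptors the co-receptor TDGF1 stood at 202 CPM per kb, ACVR2B at 19.0, BMPR1A at 11.4, TGFBR1 at 11.2 and ACVR1B at 8.65. Of 11 BMP antagonists 5 were present. Of 12 BMP targets 7 were present, among them ID3 at 91.7 and 45.9 CPM and ID1 at 48.4 and 45 CPM.

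In the FGF family 6 of 22 ligands and 5 of 7 receptors were present, with list medians of 0.215 and 6.67 CPM per kb. FGF2, the factor that sustains human stem cells in culture, read 148 and 166 CPM and was the only ligand of all 8 ligand lists above 100 CPM. Per kb it was also the highest of these ligands, at 23.1, and 5 ligands reached 10 CPM per kb. FGF11 read 18.2 and 18.1 CPM and FGF19 10.1 and 14.5 CPM, while FGF5 and FGF6 had 0 counts. FGFR1 stood at 94.5 CPM per kb (659 and 515 CPM), above FGFR4 at 43.6, FGFR2 at 26.3 and FGFR3 at 4.67 CPM per kb.

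The same order held in other pathways. ERBB2, the EGF family co-receptor with no ligand of its own, stood at 206 CPM per kb (1084 and 943 CPM), the highest of 61 receptors, while no EGF family ligand exceeded 1.16 CPM per kb. All 4 Notch receptors were present with a list median of 17.9 CPM per kb, led by NOTCH3 (328 and 343 CPM), against 0.633 CPM per kb for 7 Notch ligands. All 5 PDGF and VEGF receptors were present, with FLT1 at 152 and 209 CPM. Ephrins and Eph receptors went the other way, with medians of 5.58 and 2.41 CPM per kb. Over all lists, 48 of 61 receptors (78.7%) and 52 of 114 ligands (45.6%) were present. The present receptors had a median of 6.02 and the present ligands one of 2.36 CPM per kb, and 16 receptors passed 100 CPM. At 10 CPM per kb or more stood 21 receptors and 5 ligands. These shares are a description of fixed lists and were not tested.

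**Figure D3:**
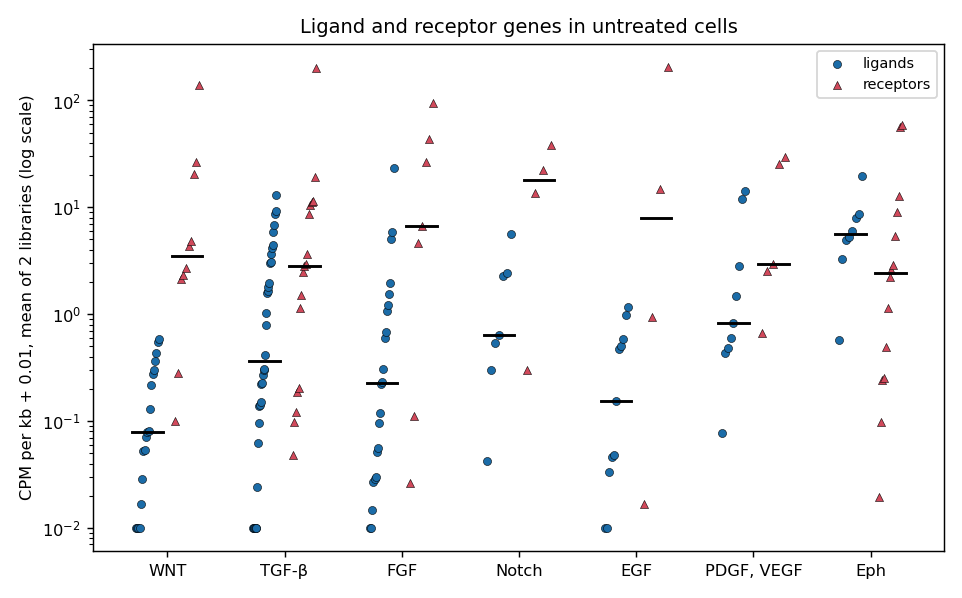
Level of each ligand and receptor in mTeSR1 by pathway, in CPM per kb (mean of 2 libraries) plus 0.01 on a log axis, with 1 point per gene and a black line at the list median. Receptor lists lie above their ligand lists in the WNT, TGF-β, FGF, Notch, EGF and PDGF-VEGF pathways, and ephrins lie above Eph receptors.

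The untreated state was next compared with the treated cells, to find which genes set it apart. The mean of mTeSR1 was tested against the mean of WNT3A 6 h, WNT3A 18 h and CHIR99021 6 h over 8 libraries, with edgeR's quasi-likelihood test and Benjamini-Hochberg adjustment. Of 15141 symbols, 135 (0.892%) passed an adjusted p of 0.05, 42 (0.277%) higher and 93 (0.614%) lower in mTeSR1. With the biological repeat as a block 353 passed, 164 higher and 189 lower. The count rests on few libraries: it was 11 without mTeSR1 repeat 1, 21 without mTeSR1 repeat 2, 46 and 47 without either WNT3A 18 h library and 41 and 34 without either CHIR99021 6 h library. A group left with 1 library was assumed to vary like the others.

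Genes higher in the untreated cells included factors of primed pluripotency and a WNT inhibitor. FOXD3, a forkhead factor needed for pluripotent cells, read 54.7 and 44.3 CPM in mTeSR1, 4.53 and 3.03 after WNT3A for 6 h, 2.48 and 3.41 after 18 h, 10.5 and 10.1 after CHIR99021 for 6 h and 5.59 and 2.14 after 18 h. Its log2 difference was 3.36 ± 0.18 (SE, edgeR adjusted p = 0.000875). SHISA2 read 37.4 and 39.2 CPM in mTeSR1 and between 0.405 and 10.2 CPM in the 6 treated libraries tested (log2 3.94 ± 0.27, edgeR adjusted p = 0.00175). For both genes the untreated libraries lay above all 8 treated ones. Both were named for their large differences in most of the same libraries, so this is a description. The share of all symbols without overlap was not counted. Of 12 secreted WNT inhibitors tested, 1 (SHISA2) was higher and 1 (DKK4) lower, beside 0.277% and 0.614% of all symbols. DKK4 had 0 counts in mTeSR1 and read 0.330 to 21.5 CPM in the 6 treated libraries tested (log2 -8.47, edgeR adjusted p = 0.0451).

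The anterior factor HESX1 read 13.7 and 8.92 CPM against 0.382 to 6.38 CPM in the 6 treated libraries tested (log2 2.35, edgeR adjusted p = 0.00460). POU3F1 read 64.2 and 40.4 CPM against 7.22 to 22.3 CPM (log2 2.16, edgeR adjusted p = 0.0113). PRDM14, a repressor that guards pluripotency, read 97.5 and 135 CPM against 16.9 to 51.7 CPM (log2 1.85, edgeR adjusted p = 0.0359). OTX2 overlapped the treated range, at 68.7 and 41.0 CPM against 8.64 to 49.6 CPM (log2 1.21, edgeR adjusted p = 0.0475). FAM220A also passed (log2 5.15), but its 17.1 and 18.4 CPM in mTeSR1 lay within the treated range, since it read 19.6 and 15.3 CPM after WNT3A for 6 h and 0 and 0 after CHIR99021 for 6 h.

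Other symbols higher by more than 1.5 on the log2 scale were TMEM26, DGKK, SORBS2, FOXJ1, SEZ6 and TRIM54, and FOXO1 was higher by 1.32. Among the 24 core pluripotency members, all tested, 1 (PRDM14) was higher and none lower, and the list's median log2 difference was -0.00038, beside -0.01 over all symbols tested. Among the 20 primed members, all tested, 3 (FOXD3, HESX1, OTX2) were higher, with a median of 0.21. DNMT3B, at 2463 and 2497 CPM in mTeSR1, lay above all treated libraries (960 to 1805 CPM) but did not pass (log2 0.67, edgeR adjusted p = 0.0819).

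Genes lower in the untreated cells included streak factors and WNT targets, some of them at the floor and others present in mTeSR1. Of 14 streak and mesoderm members that passed the filter on low counts, out of 22, 8 were lower: TBXT, EOMES, MIXL1, SP5, SP8, CDX1, CDX2 and NKX1-2. SP5 read 0.371 and 0 CPM in mTeSR1 and 58.6 to 360 CPM in the 6 treated libraries tested. Of 17 WNT targets that passed the filter, out of 18, 11 were lower. Members at the floor in mTeSR1 enter such counts only where they are high in treated cells, so these counts are a description.

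Several lower genes were present before treatment. NKX1-2 read 44.5 and 39.4 CPM in mTeSR1 and 168 to 629 CPM in the 6 treated libraries tested (log2 -3.15, edgeR adjusted p = 0.00430). FST, an activin and BMP antagonist, read 12.7 and 7.22 CPM against 107 to 473 CPM (log2 -4.49, edgeR adjusted p = 0.00175). AXIN2 read 39.9 and 30.9 CPM against 105 to 245 CPM (log2 -2.21, edgeR adjusted p = 0.00430). The forkhead factor FOXB1 read 1.70 and 1.98 CPM against 49.0 to 99.8 CPM, and the homeobox factor GBX2 1.11 and 1.10 CPM against 8.67 to 110 CPM. FZD10, the 1 frizzled receptor of 10 to pass, read 0.318 and 0.276 CPM against 4.25 to 10.5 CPM. No TGF-β family ligand or receptor passed, of 24 and 14 tested, beside 0.892% of all symbols. NODAL read 2.49 and 7.72 CPM in mTeSR1, below all treated libraries (32.3 to 211 CPM), and missed the threshold (log2 -4.02, edgeR adjusted p = 0.0566).

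The last comparison concerned the repeats. In mTeSR1, 1 library stands against 1, so ratios are a description. Of 13669 symbols with a mean of 1 CPM or more, 229 (1.68%) were over 2-fold higher and 496 (3.63%) over 2-fold lower in repeat 2, 725 (5.3%) in all, after 0.5 CPM was added to each. The SD of the log2 ratio was 0.53, 80.2% of symbols lay within 1.5-fold, and Pearson's r of log2 levels across these symbols was 0.969.

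The ratio went with transcript length. Median log2 ratios, repeat 2 over repeat 1, were -0.60 for transcripts under 1 kb (n = 365), -0.37 for 1 to 2 kb, -0.15 for 2 to 4 kb, 0.06 for 4 to 8 kb and 0.29 for 8 kb or more. Across genes, Spearman's rho of the ratio with length was 0.440. The WNT3A 6 h pair showed the same slope, with rho 0.474, while the WNT3A 18 h and CHIR99021 6 h pairs gave -0.113 and -0.0682. Of 83 present ribosomal protein genes, which are short, 81 were lower in repeat 2 of mTeSR1, with a median log2 ratio of -0.76. Of 13 mitochondrially encoded genes, 11 were higher, with a median of 0.85. These are short as well, at 207 to 1812 bases, and so ran against the slope. All 10 present immediate early genes of 13 were lower, with a median of -0.31. Among all symbols, 79.7% were lower in repeat 2 under 1 kb, 81.1% at 1 to 2 kb and 65.5% at 2 to 4 kb. At 4 to 8 kb 42.4% were lower, and at 8 kb or more 22.8%. These shares are the background for the list counts. POU5F1 had its low values in repeat 2 of mTeSR1 (924 CPM) and of WNT3A 6 h (535 CPM). It read between 1345 and 1800 CPM in the other 8 libraries. Its log2 ratio in mTeSR1, -0.86, lay below the lower quartile of -0.41 for transcripts of 2 to 4 kb, its own length class. In the test over repeats given below POU5F1 did not pass (log2 -0.44, edgeR adjusted p = 0.303). The part of length in the difference of any single gene was not tested.

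**Figure D4:**
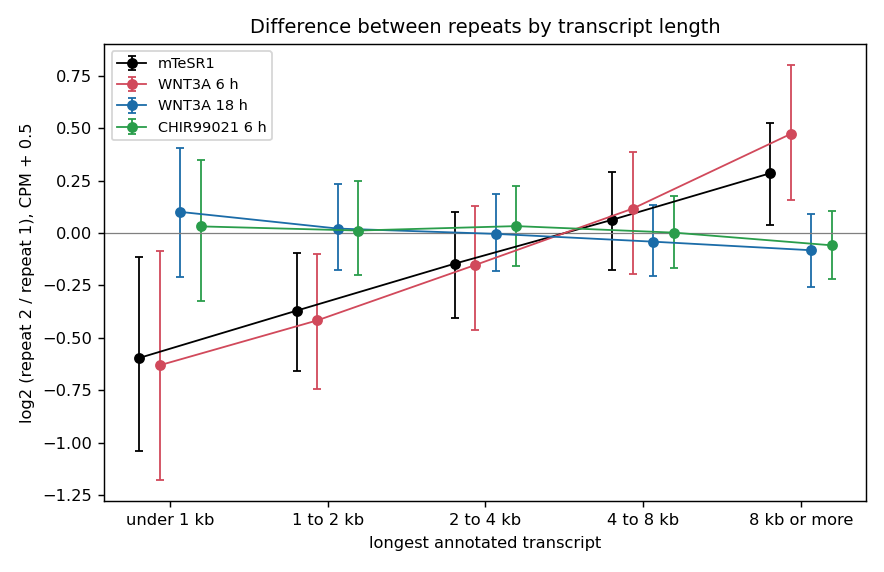
Median log2 ratio of repeat 2 over repeat 1 by length of the longest annotated transcript, for the 4 pairs, with bars from the lower to the upper quartile. The mTeSR1 and WNT3A 6 h pairs climb from about -0.60 and -0.63 below 1 kb to 0.29 and 0.47 at 8 kb or more, and the other pairs stay near 0.

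Some of the largest ratios in mTeSR1 belonged to gene copies between which reads can be divided. MAGED4 read 47.6 and 0.120 CPM, RGPD5 38.4 and 1.10, RGPD6 2.28 and 48.4, EIF3CL 0.293 and 118 and the pseudogene H3F3AP4 10.6 and 74.1 CPM. MAGED4, RGPD5 and RGPD6 differed in sign between pairs of libraries, and all 5 are uncertain. Short genes among those lower in repeat 2 were UBL5 (76.2 and 13 CPM) and the mitochondrial protein ROMO1 (42.9 and 8.17 CPM). The keratin KRT10 read 24.2 and 3.80 CPM, and PKDCC, a secreted kinase, 161 and 34.3 CPM. Higher in repeat 2 were the short genes MT1G, a metallothionein (6.31 and 30.6 CPM), and MT-ATP8 (59.4 and 196 CPM). So was the protease inhibitor SERPINB9 (13 and 43.7 CPM). Long genes higher in repeat 2 were MAML2 (5.09 and 17.3 CPM), TRDN (5.14 and 17), RASGRF2 (9.76 and 30.8) and TTN (11.9 and 35.2).

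The repeat effect was then tested over the 4 groups that hold both repeats, with the group as a block. Of 14529 symbols, 585 (4.03%) passed an adjusted p of 0.05 in edgeR's quasi-likelihood test, 259 (1.78%) higher and 326 (2.24%) lower in repeat 2. Without the group block 181 passed. The median length was 3996.5 bases for the higher and 2621 bases for the lower symbols, against 3676.5 bases for all tested. This test includes the mTeSR1 pair. In the 6 treated libraries alone, 27 of 14629 symbols (0.185%) passed, 11 (0.0752%) higher and 16 (0.109%) lower. All 27 were among the 585, but these 6 libraries are also part of the first test, so the overlap is not independent. Leaving out WNT3A 6 h changed the first count to 150 and the second to 3069, and leaving out CHIR99021 6 h changed them to 219 and 165. Leaving out WNT3A 18 h took the second count to 225.

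Adult globin transcripts were found in repeat 1 and hardly at all in repeat 2. HBB, the β-globin gene, read 50.7 CPM in repeat 1 of mTeSR1, 54.8 and 32.9 CPM in repeat 1 of WNT3A 6 h and 18 h and 110 CPM in repeat 1 of CHIR99021 6 h, and 0 in all 6 libraries of repeat 2. In mTeSR1 this was at least 307-fold against a floor of 3 counts in repeat 2. HBA2 read 77.1 and 0 CPM in mTeSR1, 44.4 to 96.8 CPM in repeat 1 overall and at most 0.785 CPM in repeat 2. HBA1 read 45.6 and 0.496 CPM, and reads can be divided between these 2 near-identical α-globin genes. All 3 passed in the treated libraries alone (edgeR adjusted p = 0.0114, 0.00176 and 0.0313).

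Other genes of blood cells, most of them chosen after their values were seen, gave mixed values. HBD, HBE1 and HBZ had 0 counts in all 10 libraries, and the fetal globins HBG1 and HBG2 read at most 0.232 CPM. ALAS2, the erythroid enzyme of haem synthesis, read 0.318 and 0.276 CPM in mTeSR1. S100A9, a neutrophil and monocyte protein, read 0.848 and 0 CPM, 0.600 to 2.64 CPM in repeat 1 overall and at most 0.116 CPM in repeat 2. LYZ read 0.848 and 0.165 CPM, 0.648 to 0.848 CPM in repeat 1 and at most 0.174 CPM in repeat 2. Both passed as lower in repeat 2 (edgeR adjusted p = 0.0190 and 0.0344) but not in the treated libraries alone (0.114 and 0.161). S100A8, too low to be tested, read 0.265 to 1.06 CPM in repeat 1 and 0 in all 6 libraries of repeat 2. CD74, the invariant chain of MHC class II, did not split, at 18.9 and 23.4 CPM in mTeSR1 and 14.5 to 30.4 CPM over the 10 libraries. The summed level of the 9 blood markers, HBA1 included, lay between 35.6 and 79.1 CPM in the 4 libraries of repeat 1 and between 1.76 and 2.68 CPM in the 6 of repeat 2. HBA1 alone read 33.4 to 76.5 CPM in those 4 libraries, so the sum there mostly restates HBA1. The source of the globin counts was not tested.

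Some anterior neural factors split by repeat as well, and others did not. SIX3 read 10.7 CPM in repeat 1 of mTeSR1, 4.77, 0.955 and 5.02 CPM in repeat 1 of WNT3A 6 h, WNT3A 18 h and CHIR99021 6 h, and 0 in all 6 libraries of repeat 2 (log2 -9.71, edgeR adjusted p = 0.0118). LHX5 read 8.21 and 0.0551 CPM in mTeSR1, 6.21 to 9.25 CPM in repeat 1 and at most 0.561 CPM in repeat 2. FABP7, a fatty acid carrier of radial glia, read 28.8 and 5.40 CPM (log2 -1.98, edgeR adjusted p = 0.00918). In the treated libraries alone these 3 did not pass (edgeR adjusted p = 0.0829, 0.0849 and 0.0829), though their direction was the same in every pair. FEZF2, another forebrain factor chosen after values were seen, read 1.43 and 0 CPM. The anterior factors OTX2 (edgeR adjusted p = 0.622), HESX1 (0.562) and FEZF1 (0.0823) did not pass, and FEZF1, also chosen after values were seen, read 48.9 and 21.5 CPM in mTeSR1 but 8.64 and 8.17 CPM after WNT3A for 18 h. RAX read 0.239 and 0.232 CPM in that pair. The neural list passed the filter for only 6 of 23 members, of which 3 (LHX2, PAX6 and SIX3) were lower, beside 2.24% of all symbols. Members near 0 in repeat 2 enter such a count only where they are higher in repeat 1, so it is a description. The list's summed level ranged from 43.8 to 130 CPM in repeat 1 and from 26.7 to 128.5 CPM in repeat 2.

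Some pluripotency and NODAL genes went the other way. NANOG was higher in repeat 2 in all 4 pairs, at 134 and 250 CPM after WNT3A for 6 h, 155 and 242 after 18 h and 97.8 and 147 after CHIR99021 for 6 h (log2 0.77 ± 0.10, edgeR adjusted p = 0.0145). In the treated libraries alone it did not pass (log2 0.73, edgeR adjusted p = 0.105). LEFTY1 (log2 2.58), NODAL (log2 1.21), GDF3 (log2 0.82) and FGF4 (log2 2.12) also passed as higher in repeat 2, but not in the treated libraries alone (edgeR adjusted p = 0.0722, 0.136, 0.0934 and 0.0849). Of the CHIR99021 18 h libraries, both of repeat 2 and outside the test, 1 read LEFTY1 at 1.13 and FGF4 at 0.347 CPM, as low as repeat 1. The core list had 3 of 24 members higher (NANOG, DPPA2 and GDF3), beside 1.78% of all symbols, and none lower, with a median of 0.14, beside 0.01 over all symbols tested. In the treated libraries alone 0 of 24 passed.

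WNT receptors were uneven between repeats. FZD5 was higher in repeat 2 (127 and 232 CPM in mTeSR1, log2 0.90, edgeR adjusted p = 0.0342), while FZD2 (59.1 and 28.2 CPM, log2 -1.07) and FZD8 (24.3 and 10.3 CPM, log2 -1.07) were lower, as was FZD1. In the treated libraries alone none of 10 frizzled receptors passed (edgeR adjusted p = 0.178, 0.114, 0.148 and 0.0934 for these 4). FRZB, a secreted antagonist, read 16.2 and 7 CPM in mTeSR1 and did pass in the treated libraries alone (log2 -1.64, edgeR adjusted p = 0.0414). So did APC2, at 16.1 and 4.80 CPM, EFNB1, at 26.9 and 12.5 CPM, and SOX9, at 14.6 and 7 CPM.

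Outside the lists, GREB1L, a regulator of kidney and ear development, read 12.1 and 0.331 CPM in mTeSR1, 11.5 to 13.5 CPM in all 4 libraries of repeat 1 and 0.331 to 0.463 CPM in all 6 of repeat 2 (log2 -4.82, edgeR adjusted p = 0.000302). THSD8 was the reverse, at 0 and 12.1 CPM in mTeSR1, at most 0.147 CPM in repeat 1 and 8.02 to 21.0 CPM in repeat 2 (log2 8.45, edgeR adjusted p = 0.000707). CAV1, the caveolar coat protein, read 3.13 and 9.26 CPM, and MT1G was higher in repeat 2 of every pair. Repeats did not overlap for GREB1L, THSD8 or MT1G over the 10 libraries, nor for HBB, HBA1, HBA2 and SIX3. How many of all symbols show no overlap was not counted. These genes were named for their large differences in most of the same libraries, so this is a description.

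**Figure D5:**
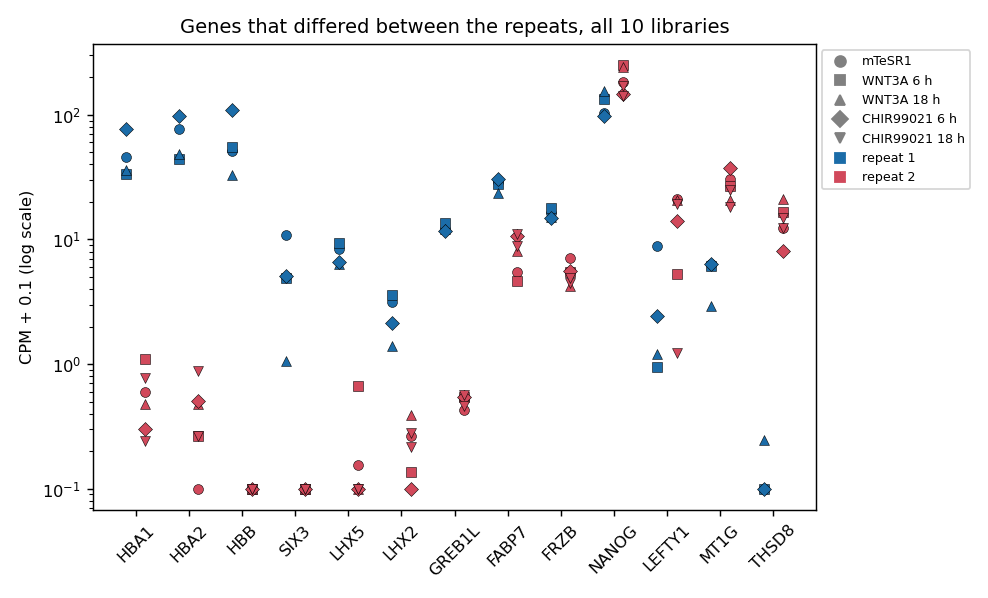
Level of genes that differed between repeats in each of the 10 libraries, in CPM, with blue for repeat 1, red for repeat 2 and the marker shape for the group. HBB lies at 0 in all 6 libraries of repeat 2, and GREB1L lies at 11.5 to 13.5 CPM in repeat 1 and below 0.5 CPM in repeat 2.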

How the data were processed

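Total RNA of 10 ESI017 cultures was sequenced as paired-end poly(A) libraries, per the labels' protocols. The authors deposited estimated counts per gene, not normalized; the submitters' processing notes list Salmon 1.8.0 as tool and GRCh38 as build. The sources used here do not give the transcript set, gene summing or strand setting. The table held 37951 identifiers of protein-coding genes and pseudogenes; other RNA classes were not analysed here. Identifiers with 1 symbol were summed to 35940 symbols (1034 with several), rounded to whole counts for tests and scaled to CPM otherwise. Lengths and coordinates came from GENCODE 29, which held 35003 identifiers, and promoter sequences from RefSeq, GRCh38.p14. Without strand information, overlapping and antisense genes were not separated.

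Tests used edgeR 4.0.16 (quasi-likelihood, robust, TMM, filterByExpr with a minimum count of 10 and a total of 15) in R 4.3.3, with DESeq2 1.42.0 as an alternative; an adjusted p under 0.05 was a call. The rest used Python 3.11.15, pandas 2.3.3 and scipy 1.17.1. Replicates are separate repeats per the series' design text, except for CHIR99021 18 h, whose libraries share repeat 2; all are of 1 line, so p-values measure only the spread between these cultures. The series' text and the labels name different sequencers without assigning libraries to them, so sequencer and repeat cannot be told apart. The numbers pair libraries: Pearson's r of same-numbered deviations from group means was 0.290 to 0.747 over 6 pairs of groups (13707 genes). The untreated comparison was fitted without that block, and the repeat test with the group as a block.

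On simulated data with 200 changed genes, the untreated test recovered 46.9% of changes of 1 log2 unit and 89.2% of 2, and the repeat test 85.2% and 98.2%. Apart from the changed genes, simulated libraries shared a common mean per gene, with no pairing by repeat and no length slope. These rates therefore need not hold for the real libraries. Named genes were the 5 markers, the 20 most abundant by count and per kb, the leading, split and zero members of each of 58 lists, and, per test, the 12 (untreated) or 10 (repeat) largest called differences each way at a mean of 5 CPM or more, called list members, and the 10 largest mTeSR1 ratios each way at a mean of 10 CPM or more. Members and lists were chosen with earlier results of these data known. Alternatives covered normalization, tool, filters, the block, length, summing of identifiers and left-out libraries. Some single genes of these lists are not reported here.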

Additional observations from a re-analysis of the deposited data

Results flagged for a closer look

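The ratio of repeat 2 over repeat 1 was larger for longer transcripts in mTeSR1, as in WNT3A 6 h, and not in the other pairs. Across genes, Spearman's rho of the ratio with length was 0.440 in mTeSR1, -0.113 after 18 h of WNT3A and -0.0682 after 6 h of CHIR99021. These pairs were picked out because their slopes differed in sign. Each pair is 1 library against 1, so the difference between pairs was not tested.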

How the results depend on the processing

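For the untreated comparison (135 calls), the count was 353 with the replicate block, 350 with DESeq2, 274 with no filter on low counts, 453 with CHIR99021 18 h included and the replicate block, and 11 to 146 when 1 library was left out. Chosen after seeing the data, a length correction gave 209, and leaving out repeat 2 of mTeSR1 and of WNT3A 6 h gave 26. It was 135 with DESeq2's size factors in edgeR, 144 with a stricter filter and 112 per identifier. For the repeat test (585), the count was 181 without the group block that pairs the repeats, 1466 with DESeq2, 1588 with a length correction and 27 to 730 when 1 group was left out. Leaving out mTeSR1 and WNT3A 6 h together, chosen after seeing the data, gave 3069. In the treated libraries alone (27), the count was 8 without that block, 425 with DESeq2, 170 with no filter, 373 with a length correction and 165 to 3069 when 1 group was left out. The cause of these shifts was not tested, beyond the fewer libraries fitted.

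The direction of all 52 named genes of the untreated comparison, 77 of the repeat test and 15 of the treated-only test was the same in every alternative that gave a value. All 52 kept their call with the replicate block, with DESeq2 and with a length correction, 10 kept it without mTeSR1 repeat 1 and 16 without mTeSR1 repeat 2. FOXB1, FOXD3, FST, GBX2, SHISA2 and SP5 kept it in all 17 alternatives. In the repeat test, CAV1, EIF3CL, FRZB, GREB1L, HBA1, HBA2, HBB, MT1G, RPL21P16 and THSD8 kept their call in all 10. The share of counts in the 100 most abundant symbols was 19.9% on average and 16.3% without mitochondrially encoded genes. The count of symbols over 2-fold apart in mTeSR1 was 725, and 339 at a mean of 10 CPM or more. With 2 untreated libraries, each a single repeat, levels under 0.159 CPM in repeat 1 and 0.165 CPM in repeat 2 rest on fewer than 3 counts, and repeat differences within mTeSR1 could not be tested.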
